A study of Caenorhabditis elegans with 4 samples.

Results

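The regions described here are the REC-8 peaks of Caenorhabditis elegans chromosome IV that lie outside its domains of piRNA genes. They were taken from the authors' combined peak list, on the WS220 genome build, by the position of each peak's midpoint alone. A peak belongs when its midpoint is neither between 4500000 and 7000000 nor between 13500000 and 17200000. This gave 729 of the 1025 chromosome IV peaks, and of 5889 nuclear peaks in all. Of these, 279 lay in the left end of 4.5 Mb, 438 in the centre of 6.5 Mb between the domains, and 12 in the right tip of 0.294 Mb beyond them. Only the bound at 13500000 was crossed by a combined peak, at 13499943 to 13500360 with a score of 7.20, whose midpoint lies 151.5 bp inside the domain. The nearest member there, at 13487506 to 13487768, had its midpoint 12363 bp outside and a score of 4.49. At the other bounds the nearest members lay 17270.5, 39729.5 and 10916 bp outside.

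REC-8 binding was profiled by ChIP-seq, in which DNA crosslinked to a protein is recovered with an antibody and sequenced. The groups were 2 REC-8 ChIP libraries, made with an affinity-purified rabbit polyclonal antibody (SDQ3914), and 2 input libraries. All came from whole hermaphrodites of the strain fem-2(b245), genotype fem-2(b245)III, kept at 20 degrees Celsius and crosslinked with EGS and then with EGS plus formaldehyde. The labels describe young adults with a germ line, whereas the growth protocol speaks of gravid adults from synchronized batch cultures, so each library pools many worms. Every group carries the mutant fem-2 allele and there is no wild type. Only the ChIP libraries contribute peak lists, and the inputs were not analysed here. Nothing says that the ChIP replicates came from separate cultures, so the spread between them may be technical.

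Cohesin is a ring-shaped complex that holds sister chromatids together, and REC-8 is a kleisin, the subunit that closes the ring, used in meiosis. In the worm germ line REC-8 cohesin lies along the chromosome axes on which homologues pair and recombine. The gene fem-2 encodes a phosphatase needed for male fates, and its loss feminises the germ line. Chromosome IV is known for its broad clusters of piRNA genes, which encode short RNAs that guide the Piwi protein PRG-1 in silencing foreign transcripts in the germ line. The chromosome also holds ordinary protein-coding genes, with a gene-dense central region and arms in which recombination is more frequent. The segment called the centre here is only the interval between the piRNA domains and is not defined by gene density or recombination.

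The lists give peaks and not reads, so sequencing depth is unknown. With 2 replicates no exact two-sided test can give a p below 0.5, so the comparisons are given as values, with the SD over the replicates where there is one. The combined list is the authors' own value and has no SD. Its scores come from the peak caller, on a scale not given, and were compared with those of the replicate lists by rank only. In the whole series the combined list covered 2.75% of the nuclear chromosomes, replicate 1 covered 1.22% and replicate 2 covered 3.75%, and the peaks of replicate 2 were wider throughout.

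Outside the piRNA domains chromosome IV carried REC-8 peaks at a density close to that of the other autosomes. Replicate 1 had 251 peaks there, or 22.2 peaks per Mb, and replicate 2 had 256 peaks, or 22.7 peaks per Mb. The mean was 22.4 ± 0.313 peaks per Mb (SD, n = 2), against 21.9 ± 1.29 peaks per Mb on chromosomes I, II, III and V together. The log2 ratio between them was 0.09 in replicate 1 and -0.01 in replicate 2, so the replicates did not share a direction. The combined list gave 64.5 peaks per Mb outside the domains, against 65.3 peaks per Mb on the other autosomes. X, given for scale, had 11.3 ± 1.64 peaks per Mb, about 1 log2 unit lower in each replicate (the ratios of the chromosome IV regions to X were 0.84 and 1.17).

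Density outside the domains was above that inside them in every list, but by an amount that varied with the list. Replicate 1 had 22.2 peaks per Mb outside against 20.5 peaks per Mb inside. Replicate 2 had 22.7 peaks per Mb outside against 17.6 peaks per Mb inside. The mean log2 ratio was 0.24 ± 0.18 (SD, n = 2), with 0.12 in replicate 1 and 0.37 in replicate 2. For combined peaks it was 0.44. The first domain was sparse in both replicates, with log2 ratios of the outer regions to it of 0.75 and 0.47. Against the second domain the replicates differed in sign, at -0.19 in replicate 1 and 0.30 in replicate 2. Among the higher-scored 50% of each list the mean log2 ratio was -0.027, and with the domains widened by 250 kb at each bound it was 0.066. Measured as base pairs covered, with both domains pooled, the log2 ratio of outside to inside was steadier, with a replicate mean of 0.22 ± 0.0096 (SD, n = 2). Combined peaks gave 0.35 by that measure. Domain by domain it was not steadier in this way. The covered-sequence log2 ratios in replicates 1 and 2 were 0.85 and 0.32 against the first domain, and -0.08 and 0.14 against the second. Joining peaks within 500 bp left a mean log2 density ratio of 0.22, again with both domains pooled. Of the alternatives tried, only keeping the higher-scored 50% reversed the sign, and that value was small.

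The left end and the centre could not be ordered by density. Replicate 1 had 24.0 peaks per Mb in the left end against 20.9 peaks per Mb in the centre. Replicate 2 had 23.3 peaks per Mb in the left end against 22.9 peaks per Mb in the centre. The combined list had 62.0 peaks per Mb in the left end against 67.4 peaks per Mb in the centre. The log2 ratio of the left end to the centre was 0.20 and 0.03 in the replicates (mean 0.11 ± 0.12, SD, n = 2) and -0.12 in the combined list. Measured as base pairs covered, the ratio was -0.10 and -0.08 in the replicates and -0.12 in the combined list. The left end therefore held slightly more replicate peaks per Mb, and the centre slightly more covered sequence. With peaks within 500 bp joined, the mean log2 density ratio over the replicates was smaller, at 0.055. The right tip, with 12 combined, 7 replicate 1 and 2 replicate 2 peaks, had too few for a density to be read.

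Bins of 500 kb within a segment differed more in density than the 2 segments did. Short bins scatter more than long segments from counting alone, so the contrast partly follows from the bin size. In bins of 500 kb along the left end, the combined list had 26, 27, 37, 21, 32, 40, 32, 17 and 47 peaks from the left telomere towards the first domain. Replicate 1 had 20, 4, 15, 5, 10, 14, 8, 12 and 20 peaks in the same bins. Replicate 2 had 10, 10, 15, 8, 16, 12, 9, 9 and 16 peaks. The last bin, next to the piRNA domain, had the highest count in the combined list and tied for the highest in each replicate. In the first bin the replicates were farthest apart, with 20 peaks in replicate 1 and 10 in replicate 2.

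The centre had a trough in its middle and its peaks gathered towards the right. The combined list had 33, 43, 31, 36, 25, 19, 27, 24, 51, 27, 37, 30 and 55 peaks in the 13 bins from the first domain to the second. Replicate 1 had 15, 7, 10, 12, 6, 3, 5, 7, 23, 10, 15, 9 and 14 peaks, and replicate 2 had 12, 14, 11, 6, 7, 6, 9, 6, 21, 10, 15, 12 and 20 peaks. In both replicates the bin from 11000001 to 11500000 held the most peaks of the centre, with 23 and 21. The bin from 9500001 to 10000000 was the poorest of the centre in the combined list, with 19 peaks, and held 3 peaks in replicate 1 and 6 in replicate 2. The combined list again had its highest count of the segment, 55, in the last bin, which borders the second piRNA domain. Replicate 1 had 14 and replicate 2 had 20 peaks there. The median combined score of that bin was 6.51, and 22 of its combined peaks were in neither replicate. The first bin of the centre also borders a domain, and it had 33 combined, 15 replicate 1 and 12 replicate 2 peaks.

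**Figure D1:**
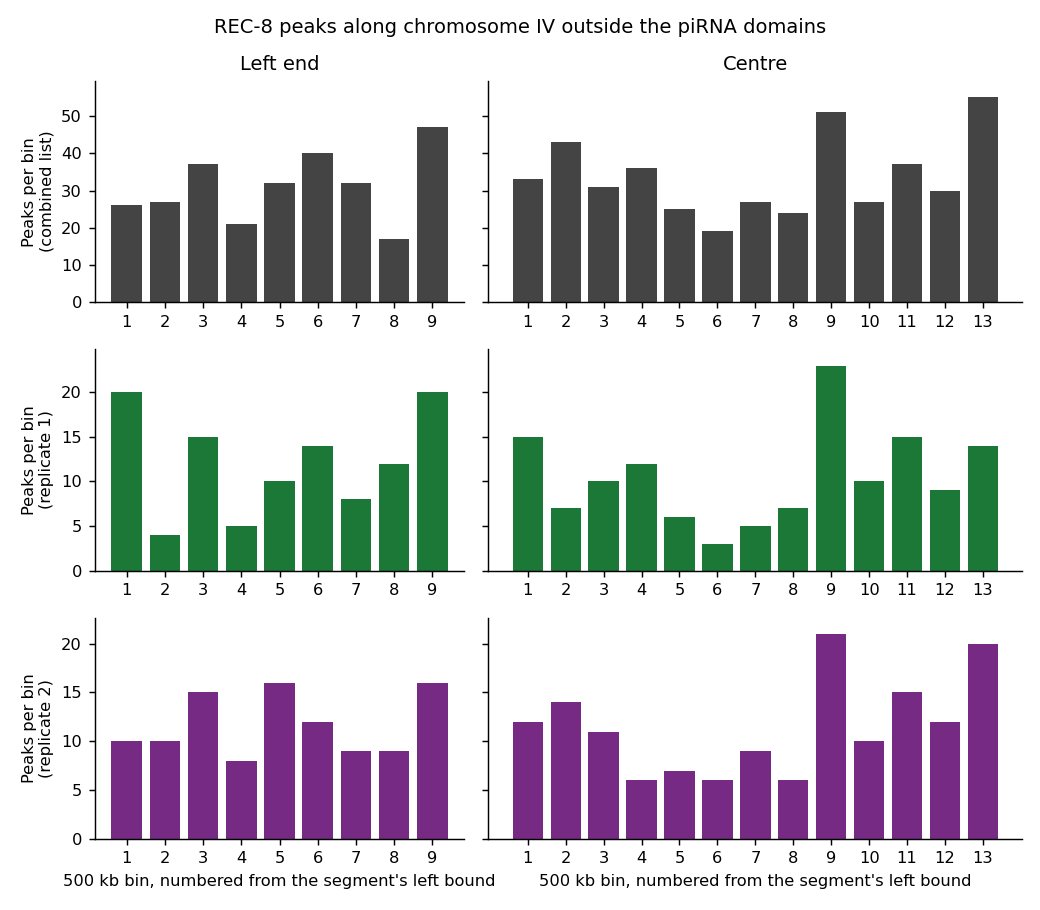
Number of REC-8 peaks (y axis) in consecutive 500 kb bins (x axis) of the left end and the centre of chromosome IV, for the combined list and each replicate. The last bin of each segment has the highest combined count, 47 in the left end and 55 in the centre. The first bin of the centre, which like these borders a piRNA domain, has 33. The centre dips to 19 in its sixth bin.

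Finer windows showed which stretches were crowded and which were nearly bare. Over 112 windows of 100 kb, the combined list had a median of 6 peaks, with a range of 0 to 19. The densest window, from 2600001 to 2700000 in the left end, had 19 combined peaks and 6 peaks in each replicate. The next were 7900001 to 8000000 in the centre, with 18 combined peaks, and 2200001 to 2300000 in the left end, with 16. Their median combined scores were 8.35, 7.17 and 5.54, against 8.86 over all 729 peaks. Only 1 window, from 11700001 to 11800000, had no combined peak, and neither replicate had a peak midpoint there. The windows from 500001 to 600000 and from 3800001 to 3900000 in the left end and from 9600001 to 9700000 in the centre had 1 combined peak each and none in either replicate.

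Counts of the replicates ran in parallel across the windows, although the windows share the same pair of libraries and are not independent. The Spearman rho between replicate 1 and replicate 2 was 0.74 over the 112 windows and the Pearson r was 0.58. In the left end rho was 0.80 over 45 windows, and in the centre 0.69 over 65 windows. Counts of replicate 1 were more uneven, with 30 empty windows and a highest count of 16, whereas replicate 2 had 19 empty windows and a highest count of 7. The window with 16, from 200001 to 300000, had 4 replicate 2 peaks. The ratio of the variance to the mean of the counts was 2.69 in replicate 1 and 1.36 in replicate 2, and 2.46 for combined peaks. In replicate 1, 16.9% of neighbouring midpoints were within 1 kb, against 0% in replicate 2. Whether such close peaks account for the uneven counts was not tested.

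Most of the regions were narrow. The 729 combined peaks had a median width of 293 bp with quartiles of 205 and 483 bp, and 61 of them (8.37%) were 1 kb or wider. The narrowest was 146 bp, which was also the narrowest width of the whole combined list. Over all nuclear combined peaks the median was 294 bp and 7.68% were 1 kb or wider. In the same segments the replicate 1 peaks had a median of 428 bp, and the replicate 2 peaks had a median of 1439 bp, of which 98.4% were 1 kb or wider. Width followed the score across the 729 peaks, with a Spearman rho of 0.68, and across all nuclear combined peaks rho was 0.67.

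Widths in the left end and the centre were ordered differently by the lists. Median width in replicate 1 was 393.5 bp in the left end against 461.5 bp in the centre, and in replicate 2 it was 1267 bp in the left end against 1516 bp in the centre. Combined peaks ran the other way, with 320 bp in the left end against 282.5 bp in the centre. In replicate 1, 8 left-end peaks (7.41%) were 1 kb or wider, against 21 centre peaks (15.4%). Among combined peaks these shares were 8.96% in the left end and 7.99% in the centre.

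**Figure D2:**
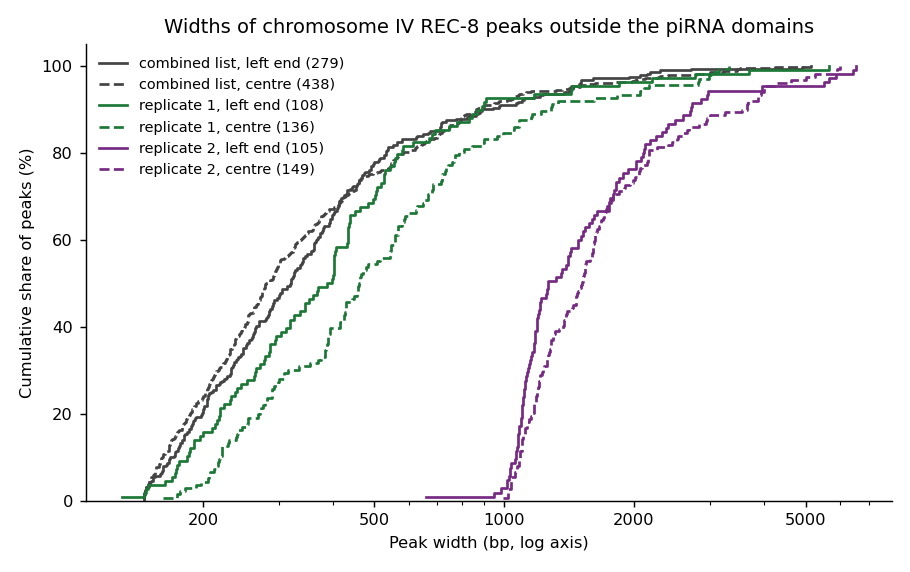
Cumulative share of peaks (y axis, percent) by width (x axis, bp, log axis) for the left end (solid) and the centre (dashed) of chromosome IV in the 3 lists, with the number of peaks in brackets. Replicate peaks are narrower in the left end (medians 393.5 and 1267 bp) than in the centre (461.5 and 1516 bp), while combined peaks are not (320 bp in the left end against 282.5 bp in the centre).

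The 5 widest combined regions measured 3.52 to 5.15 kb, and each was a single peak in replicate 2. The widest, of 5152 bp at 4416453 to 4421604, lay in the left end. It matched a replicate 1 peak 5665 bp wide, scoring 369, and a replicate 2 peak 6438 bp wide, scoring 959. Its combined score was 17.8. The next, of 4951 bp at 11610555 to 11615505 in the centre, was broken into 3 peaks of at most 292 bp in replicate 1, and its combined score was 10.4. A region of 4914 bp at 3742326 to 3747239 in the left end had a combined score of 62.2 and 3 peaks in replicate 1, of which the strongest scored 3100. The others, of 4258 bp at 12021419 to 12025676 and of 3518 bp at 11912932 to 11916449, lay in the centre, with combined scores of 162 and 117 and scores of 3100 in both replicates. The 5 widest regions thus ranged in combined score from 10.4, a little above the median of 8.86 of all 729, to the highest among them.

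Neighbouring regions were often close, with long stretches between them. The midpoints of neighbours were a median of 7.58 kb apart in the combined list, with quartiles of 1.73 and 20.7 kb and a mean of 15.4 kb. Neighbours within 1 kb made up 16.9% of 726 and those within 5 kb 41.0%, while 7.02% were over 50 kb apart. Medians were 7.57 kb in the left end and 7.51 kb in the centre, with 43.2% of left-end neighbours and 39.6% of centre neighbours within 5 kb. In replicate 1 the median was 19.8 kb, with 34.7% within 5 kb, and in replicate 2 it was 25.2 kb, with 7.11% within 5 kb. Joining combined peaks that lay within 500 bp left 598 regions with a median spacing of 12.4 kb.

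Inside the piRNA domains the median spacing was similar and the tail longer. The combined median was 7.58 kb outside the domains against 7.45 kb inside, with 7.02% of neighbours over 50 kb apart outside against 12.2% inside. Shares over 50 kb were 30.6% outside against 34.4% inside in replicate 1, and 28.9% outside against 39.3% inside in replicate 2. The share of long distances was lower outside the domains in each of these lists, and the difference was not tested.

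**Figure D3:**
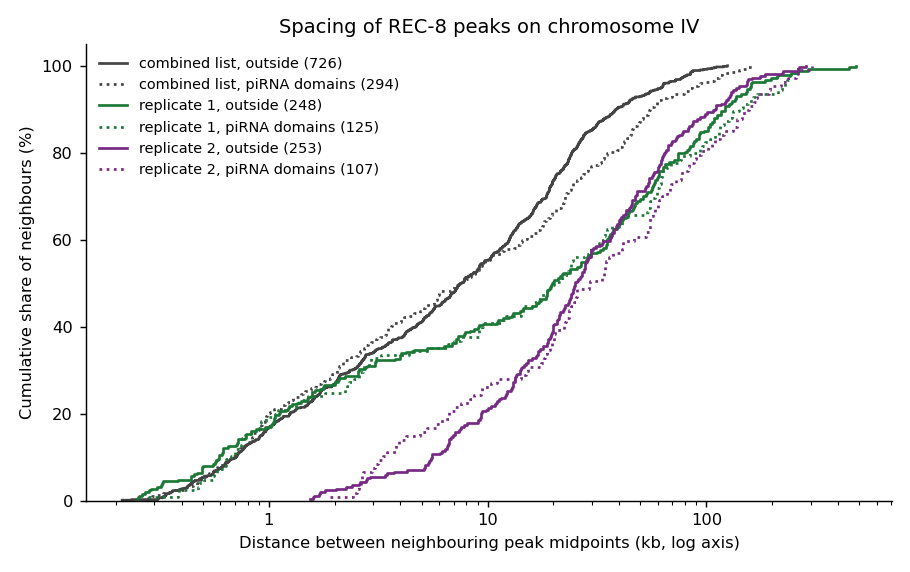
Cumulative share of neighbours (y axis, percent) by the distance between neighbouring midpoints (x axis, kb, log axis) outside the piRNA domains (solid) and inside them (dotted), with the number of neighbours in brackets. Outside and inside have like medians in the combined list (7.58 and 7.45 kb), while distances over 50 kb are less frequent outside (7.02% against 12.2%).

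Combined peaks chained at up to 5 kb formed 413 runs, of which 249 were single peaks and 19 held 5 or more peaks. Those 19 runs contained 127 of the 729 peaks (17.4%). The largest had 12 peaks over 16.2 kb in the left end, from 2236961 to 2253156, with a median combined score of 4.33 and a highest score of 100. It held 2 replicate 1 and 3 replicate 2 peaks. A run of 9 peaks from 2670547 to 2683475, also in the left end, had a highest score of 142, and a run of 9 peaks from 13430059 to 13445287 in the centre had none above 9.77 and no peak in replicate 1. The run of 8 peaks from 8572708 to 8587368 in the centre had 4 replicate 1 peaks and none in replicate 2, although its median combined score was 15.2.

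The longest bare stretches of the combined list were between 101 and 124 kb. The 6 gaps of at least 100 kb ran from 11696192 to 11820410, 8927367 to 9045853, 9884633 to 9994712 and 10548813 to 10654425 in the centre, and from 1745937 to 1853967 and 519681 to 620389 in the left end. No replicate peak had its midpoint in any of them, which follows from nearly every replicate peak overlapping a combined one. The 51 combined gaps of at least 50 kb made up 33.4% of the length outside the piRNA domains. Combined gaps of that length took up 42.2% of the left end and 26.6% of the centre, but the replicates had the opposite order. Their shares were 75.8% of the left end against 80.1% of the centre in replicate 1, and 63.2% against 68.7% in replicate 2. At 100 kb the combined order also turned, with 4.64% of the left end against 7.05% of the centre. Gaps of at least 100 kb made up 5.91% of the length outside the domains, against 22.6% inside them, where there were 11. In the replicates these shares were 54.1% outside against 60.1% inside in replicate 1, and 37.2% outside against 55.5% inside in replicate 2.

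The longest gaps of the replicates met at the same places. In the left end the longest gap ran from 1745980 to 2008876 in replicate 1, 263 kb, and from 1746355 to 2008061 in replicate 2, 262 kb. The combined list had 5 peaks inside it, with a median score of 6.19 and none above 17.1. All 5 were in neither replicate, a class with a median score of 5.54 in the left end. In the centre the longest gap of replicate 2, of 283 kb from 10374800 to 10658024, lay inside the 447 kb gap of replicate 1 from 10374362 to 10821326. The next of replicate 2, of 264 kb from 9514078 to 9777664, lay inside the longest gap of replicate 1, of 481 kb from 9513661 to 9994881. The left edges of these gaps differed by less than 0.5 kb between replicates. Combined peaks there numbered 6, with a median score of 3.13, in the first and 7, with a median score of 5.22, in the second. With no replicate peak in these gaps, all of these peaks were in neither replicate, a class with a median score of 5.22 in the centre. Their number and scores were therefore limited by how the gaps were chosen. The second of these gaps lies in the poorest bin of the centre, at 9500001 to 10000000.

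Gaps of the replicates did not always coincide. Replicate 1 had a gap of 290 kb from 7103739 to 7393868 in which replicate 2 had 4 peaks. Replicate 2 had a gap of 175 kb from 8512233 to 8687070 in which replicate 1 had 6 peaks and the combined list had 17. Replicate 2 also had a gap of 220 kb from 659 to 220772, right after its first peak, in which replicate 1 had 1 peak.

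The overlap of the combined regions with each replicate was close to that of the whole list. With overlap counted from 1 bp, 215 of the 729 regions (29.5%) met a replicate 1 peak, against 28.9% of all nuclear combined peaks. A replicate 2 peak overlapped 365 of them (50.1%), against 50.9% of all. Both replicates marked 172 regions (23.6%), against 23.1% of all, and neither marked 321 (44.0%), against 43.3% of all. Replicate 1 alone accounted for 43 regions and replicate 2 alone for 193. All of these shares lay near those of the whole list and are no result about chromosome IV.

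The left end and the centre lay on either side of the background. In the left end 80 of 279 regions (28.7%) were in both replicates, against 89 of 438 (20.3%) in the centre. Neither replicate marked 118 left-end regions (42.3%), against 196 in the centre (44.7%). The median combined score was 10.6 in the left end against 8.14 in the centre, and 29.0% of left-end regions fell in the highest of 4 equal score classes of the whole list against 22.4% in the centre. Within that class, 79.0% of left-end regions and 73.5% of centre regions were in both replicates. In the class below it these shares were 11.8% in the left end and 11.9% in the centre. In the next they were 10.4% in the left end (5 of 48) and 0.877% in the centre (1 of 114), and in the lowest 1.54% in the left end and 1.85% in the centre. With each segment cut into 4 classes by width instead, the second-widest class had 36.2% of left-end and 15.6% of centre regions in both replicates, and the widest 71.4% of left-end and 64.5% of centre regions. In the piRNA domains 30.1% of regions were in both replicates, and 34.5% lay in the highest score class. Overlap moved with the score and the width, and whether position adds to them was not tested.

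**Figure D4:**
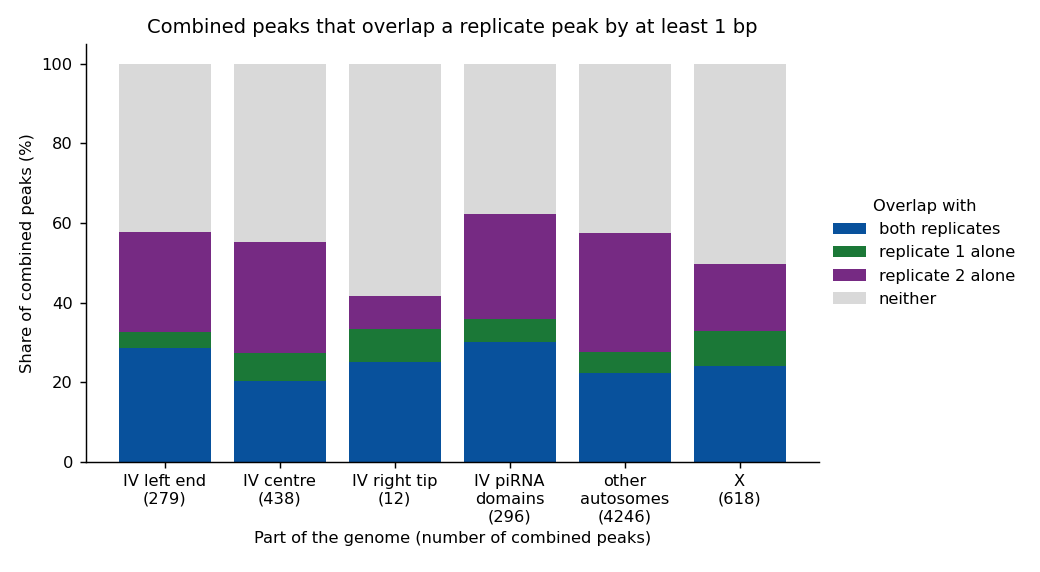
Share of combined peaks (y axis, percent) that overlap a peak of both replicates, of 1 replicate alone or of neither, for 6 parts of the genome (x axis, with the number of peaks). Peaks in both replicates make up 28.7% in the left end and 20.3% in the centre of chromosome IV, against 23.1% of all nuclear peaks.

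Score and width separated the shared regions from the others more sharply than position did. The median score was 49.4 for regions in both replicates, 9.91 for those in replicate 1 alone, 8.86 for those in replicate 2 alone and 5.54 for those in neither. Median widths were 708 bp in both, 296 bp in replicate 1 alone, 329 bp in replicate 2 alone and 214 bp in neither. With the 729 regions cut into 4 classes by score, 138 of 182 in the highest class (75.8%) were in both replicates, against 3 of 183 in the lowest (1.64%). Wider regions can meet a replicate peak more easily, and all lists rest on the same libraries, so these shares are not independent evidence for a region.

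Seen from the replicates, nearly every peak had a counterpart in the combined list. Of 251 replicate 1 peaks, 249 (99.2%) overlapped a combined region, and so did 255 of 256 replicate 2 peaks (99.6%). Over all nuclear peaks these shares were 97.1% for replicate 1 and 99.8% for replicate 2. The exceptions outside the piRNA domains lay in the centre. They were at 7394763 to 7394991 and 8153478 to 8154158 in replicate 1 and at 7989012 to 7990520 in replicate 2, with scores of 57.8, 241 and 66.8. Replicate 2 peaks overlapped 205 of the 251 replicate 1 peaks (81.7%), a share of 89.8% in the left end and 75.7% in the centre. Replicate 1 peaks overlapped 149 of the 256 replicate 2 peaks (58.2%), or 65.7% in the left end and 52.3% in the centre. Over the whole series the same shares were 80.9% and 58.7%. Peaks without a counterpart in the other replicate were weak, with median scores of 75.8 in replicate 1 and 91.0 in replicate 2, against 206 and 680 for those with one.

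Wide replicate 2 peaks often covered several combined regions. Of 256 replicate 2 peaks, 78 (30.5%) overlapped 2 or more, against 12 of 251 replicate 1 peaks (4.78%). Over all nuclear peaks these shares were close, at 31.8% in replicate 2 and 3.11% in replicate 1. Outside the piRNA domains the extreme was a replicate 2 peak of 5248 bp at 7957896 to 7963143 in the centre, with a score of 693. It spanned 6 combined regions scoring between 3.17 and 16.5 and had no replicate 1 peak in it. A replicate 2 peak of 5891 bp at 4467608 to 4473498 in the left end spanned 5 combined regions and 6 replicate 1 peaks.

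At 94 regions a single peak of each replicate matched a single combined peak, 44 of them in the left end, 49 in the centre and 1 in the right tip. The replicate midpoints there were a median of 44.5 bp apart, and 75 pairs (79.8%) lay within 100 bp. The replicate 2 peak was the wider one at all 94, by a median of 868.5 bp. Replicate scores ran in parallel, with a Spearman rho of 0.72 over the 94 regions, 0.64 in the left end and 0.77 in the centre. The combined score followed that of replicate 2 more closely, with a rho of 0.79, than that of replicate 1, with a rho of 0.58. In the left end these were 0.90 and 0.70, and in the centre 0.77 and 0.47. These coefficients describe regions from 1 pair of libraries, chosen by their being shared, and carry no test.

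**Figure D5:**
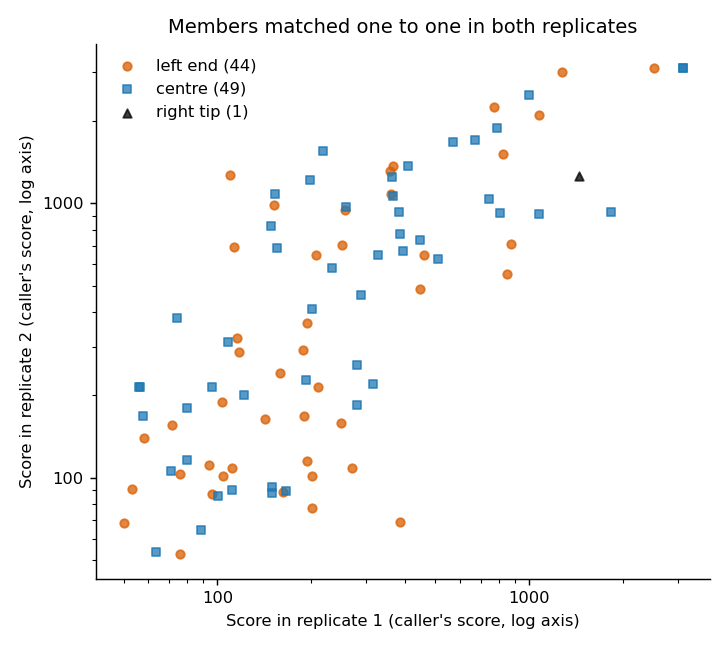
Peak score in replicate 2 (y axis, log axis) against replicate 1 (x axis, log axis) at the 94 regions matched one to one, by segment. The scores run together (Spearman rho 0.72), and the first peak of the chromosome stands apart at 384 in replicate 1 and 69.1 in replicate 2.

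The replicates ranked a few of these places very differently. The first region of the chromosome, at 1 to 226, scored 384 in replicate 1 (rank 26 of 94) and 69.1 in replicate 2 (rank 90). It lies at the left telomere, and its combined score was 5.81. The region at 2348730 to 2349587 went the other way, with 110 in replicate 1 (rank 72) and 1272 in replicate 2 (rank 16), and a combined score of 99.4. The region at 4147874 to 4148215 scored 201 in replicate 1 (rank 48) and 77.8 in replicate 2 (rank 89). All 3 were in the left end, which held 44 of the 94 matched regions. The next largest difference, at 10365862 to 10366745 (rank 60 in replicate 1 and 20 in replicate 2), was in the centre.

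The 10 highest combined scores among regions in both replicates ran from 142 to 162, with 5 in the centre, 3 in the left end and 2 in the right tip. The tenth place was a tie at 141.78, and the tied centre region, at 8687433 to 8688232, is not among the 10. Besides the region of 4258 bp named above for its width, the top 3 held 8466874 to 8468376 (1503 bp) and 9066038 to 9069271 (3234 bp) in the centre, both with scores of 3100 in each replicate. The first of these sat within a replicate 2 peak of 5893 bp, while its replicate 1 peak was 996 bp wide. The other centre regions were 9410198 to 9412496 with 2659 in replicate 1 and 3100 in replicate 2, and 13463667 to 13465294 with 3100 in both.

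In the left end the strongest was 1344831 to 1346339, of 1509 bp, with a combined score of 149 and scores of 1633 in replicate 1 and 3100 in replicate 2. The next were 4049043 to 4050117, with 826 in replicate 1 and 1508 in replicate 2, and 2675999 to 2676938, with 539 in replicate 1 and 1393 in replicate 2. All 3 left-end regions scored higher in replicate 2, but so did left-end peaks as a whole, with median scores of 236 in replicate 2 and 188 in replicate 1. Among the regions matched one to one, 4049043 to 4050117 had rank 12 in both replicates. The score of 3100 was shared by 7 replicate 1 peaks and 10 replicate 2 peaks outside the piRNA domains, where none exceeded it, so it does not rank them. Among the 100 highest-scored combined peaks of the series 9 were from these regions (9%), and among the 500 highest 62 (12.4%), where the regions made up 12.4% of the list.

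The right tip, of 0.294 Mb, held 12 regions of very unequal strength. One of 543 bp at 17249595 to 17250137 had a combined score of 160, with 1447 in replicate 1 and 1258 in replicate 2. Another of 2460 bp at 17277755 to 17280214 had a combined score of 147, with 2586 in replicate 1 and 3100 in replicate 2. Of the other 10 none scored above 20.8, and 7 of the 12 were in neither replicate. Beyond 17281880 both replicates were bare for 210 kb, up to 17492296. Replicate 1 then had peaks close to the chromosome's end, overlapping a combined region at 17492406 to 17492967, and replicate 2 had none. The last combined region, at 17493444 to 17493824, was in neither replicate.

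Some regions in neither replicate had moderate scores. The highest was 27.97 at 4154686 to 4154970 in the left end, 285 bp wide, followed by 23.62 both at 11053923 to 11054158 and at 12399999 to 12400252 in the centre, 236 and 254 bp wide. These are below the median of 49.4 for regions in both replicates but above the upper quartile of 20.2 of all 729. Absence from a replicate list says only that no peak was called there, since depth is unknown.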

How the data were processed

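The submitters' processing notes name BWA and ce10. Coordinates are those of WormBase WS220, per the file headers. The source columns of the deposited lists name MACS for the replicates and MACS v2 for the combined list. Each peak's deposited score comes from the authors' peak caller. What scale it has, whether inputs, filters or which versions were used, and how replicates were combined are points not given in the sources used here. Peak numbers and widths depend on depth and on the fragment length assumed, and neither is given.

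Segments, densities, widths, spacings, gaps and overlaps (at least 1 bp) were computed with Python 3.11.15, numpy 2.4.6, pandas 2.3.3 and scipy 1.17.1, and drawn with matplotlib 3.10.9. Functions gave the planted value in 8 of 8 checks on simulated data. The chromosome end was taken as the largest peak end, 17493824. Spacings and gaps never crossed a piRNA domain, and a gap was called bare where no midpoint lay in it.

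Named regions were the 10 highest-scored shared, 5 widest, 6 first or last, 3 highest-scored unshared and 3 most differently ranked members, the longest gaps, and the 3 densest and 3 emptiest windows, with ties at the last place named. Runs, split peaks and unmatched replicate peaks were picked after their values were seen. The members, lists and rules were chosen with earlier results of these data known. Genes and sequences were not used here, because the only annotation held is for another build, WBcel235.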

Additional observations from a re-analysis of the deposited data

How the results depend on the processing

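Under the alternatives, 6 results were recomputed to 37 values, of which 19 kept direction and stayed within the spread of the replicates or, for counts, within 1.5 times. That spread was 715 bp for the median width of 293 bp and 140 kb for the longest gap of 124 kb. It exceeds the values themselves, so staying within it says little there. With the higher-scored 50% of each list, regions in both replicates numbered 98 (172 with all peaks), the log2 ratio of left end to centre was 0.26, that of outside to piRNA domains reversed to -0.027, the median spacing was 18.3 kb and the longest gap 284 kb. Fewer peaks lower such counts and lengthen such distances by construction. For the ratios the cause was not tested. Counting overlap with the remaining replicate alone gave 365 regions without replicate 1 and 215 without replicate 2. The left end to centre log2 ratio reversed to -0.086 in base pairs covered and to -0.12 in the combined list. It was 0.055 with merged peaks. The outside to domains log2 ratio was 0.44 in the combined list and 0.066 with widened domains. The median spacing was 12.4 kb after merging, 12.6 kb for regions in either replicate, 19.8 kb in the replicate 1 list and 25.2 kb in the replicate 2 list, where the longest gaps of the last 3 were 284, 481 and 283 kb. The median width was 1439 bp in the replicate 2 list. No paired analysis was possible because only inputs are numbered like the ChIP replicates, and they were not analysed here. With depth unknown, a place without a peak may still bind REC-8.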
